A study of Mus musculus with 12 samples.

Results

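The collagen genes are the rows of the deposited expression table whose symbol has the form Col, a type number, a and a chain number. They numbered 44 of 24421 gene symbols: 11 fibrillar collagens (types 1, 2, 3, 5, 11, 24 and 27), 8 basement membrane collagens (types 4, 15 and 18) and 25 others. Bulk RNA-seq libraries of 12 mouse tumours gave their levels; the submitters call the model 425-ICC, for intrahepatic cholangiocarcinoma, a malignancy arising in the liver's own bile ducts. All tumours were collected after 8 days of treatment, with 3 samples in each of 4 groups. Combination tumours received GC together with dual ICB. GC tumours received GC alone (not spelled out in the labels; taken to mean gemcitabine with cisplatin). ICB tumours received dual ICB alone (immune checkpoint blockade, which the series title describes as CTLA-4 blockade and anti-PD1 therapy). Control tumours received IgG. The strain, sex and age of the mice, the site of the tumours and the origin of the 425 tumour are not given in the sources used here, nor is any link of samples to animals, so a p-value here reflects sample-to-sample spread, which may be technical. Values are FPKM, fragment counts scaled to gene length and library total, which can be compared between genes. Sequencing depth is unknown.

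Collagens are proteins of 3 chains wound into a triple helix, and each gene encodes 1 chain. Fibrillar collagens assemble into the cross-banded fibres that stiffen connective tissue, with Col1a1, Col1a2 and Col3a1 as the main chains in liver scars and in the stroma of bile duct cancers, where activated stellate cells and fibroblasts make them. Type IV chains form the sheet-like network of basement membranes, to which types XV and XVIII attach. Type VI forms beaded filaments around cells, and the FACIT collagens (such as Col12a1, Col14a1 and Col16a1) decorate the surface of fibres.

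Type IV chain genes lie in head-to-head pairs, and such pairs are known to start from a shared stretch of DNA. Of the 44 genes, 35 had at least 1 promoter window in RefSeq (GRCm38.p6), from 250 bases before to 50 after the start of a transcript. The windows below are shown because the results turn on these genes: the pair Col4a5 and Col4a6, where the only called collagen lies; the pair Col4a1 and Col4a2, which kept to a narrow range of ratios; Col1a2 and Col3a1, which were highest in GC tumours; and both start sites of Col18a1, which was highest in the 2 samples richest in hepatocyte transcripts. Capitals mark CCAAT, the GC box GGGCGG (a motif name with no link to the treatment) and TATAAA, searched on both strands, and none of these matches overlapped a match of another motif.
Col4a6 (chrX:141474027-141474326, minus strand): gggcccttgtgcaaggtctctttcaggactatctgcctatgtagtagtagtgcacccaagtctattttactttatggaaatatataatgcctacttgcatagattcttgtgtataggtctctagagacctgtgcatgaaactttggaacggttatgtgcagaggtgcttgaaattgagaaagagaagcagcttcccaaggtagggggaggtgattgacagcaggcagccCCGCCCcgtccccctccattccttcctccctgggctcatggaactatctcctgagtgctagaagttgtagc
Col4a5 (chrX:141475169-141475468, plus strand): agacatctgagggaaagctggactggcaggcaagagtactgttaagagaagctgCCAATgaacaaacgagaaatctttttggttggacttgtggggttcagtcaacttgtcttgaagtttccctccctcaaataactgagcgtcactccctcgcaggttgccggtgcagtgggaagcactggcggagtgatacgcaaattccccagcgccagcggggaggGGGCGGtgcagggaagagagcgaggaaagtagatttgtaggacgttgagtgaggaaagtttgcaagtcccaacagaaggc
Col4a1 (chr8:11312777-11313076, minus strand): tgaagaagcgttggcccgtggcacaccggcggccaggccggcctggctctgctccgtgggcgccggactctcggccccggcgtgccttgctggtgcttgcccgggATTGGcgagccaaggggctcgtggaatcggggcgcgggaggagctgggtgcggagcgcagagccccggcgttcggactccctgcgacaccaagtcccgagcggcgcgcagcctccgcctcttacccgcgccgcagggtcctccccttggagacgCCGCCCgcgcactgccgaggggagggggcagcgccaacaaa
Col4a2 (chr8:11312555-11312854, plus strand): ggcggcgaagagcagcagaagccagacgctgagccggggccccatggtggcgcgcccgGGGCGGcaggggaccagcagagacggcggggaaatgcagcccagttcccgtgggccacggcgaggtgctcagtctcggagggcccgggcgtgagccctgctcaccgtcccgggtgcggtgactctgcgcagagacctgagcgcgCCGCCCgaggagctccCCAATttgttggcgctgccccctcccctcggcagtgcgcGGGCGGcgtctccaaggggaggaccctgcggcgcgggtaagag
Col1a2 (chr6:4505368-4505667, plus strand): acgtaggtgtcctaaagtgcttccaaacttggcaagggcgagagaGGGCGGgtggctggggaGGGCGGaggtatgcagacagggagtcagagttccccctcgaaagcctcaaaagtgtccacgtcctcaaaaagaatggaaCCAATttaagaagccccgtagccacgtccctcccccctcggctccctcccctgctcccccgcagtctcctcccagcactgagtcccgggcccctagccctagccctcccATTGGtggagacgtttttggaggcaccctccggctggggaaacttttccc
Col3a1 (chr1:45311288-45311587, plus strand): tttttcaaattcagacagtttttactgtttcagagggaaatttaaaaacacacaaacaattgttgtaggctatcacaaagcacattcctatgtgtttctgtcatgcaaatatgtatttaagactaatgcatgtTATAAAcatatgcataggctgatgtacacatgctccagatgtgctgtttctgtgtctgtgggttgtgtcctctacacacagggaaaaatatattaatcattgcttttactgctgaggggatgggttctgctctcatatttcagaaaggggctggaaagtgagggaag
Col18a1 (chr10:77166481-77166780, minus strand): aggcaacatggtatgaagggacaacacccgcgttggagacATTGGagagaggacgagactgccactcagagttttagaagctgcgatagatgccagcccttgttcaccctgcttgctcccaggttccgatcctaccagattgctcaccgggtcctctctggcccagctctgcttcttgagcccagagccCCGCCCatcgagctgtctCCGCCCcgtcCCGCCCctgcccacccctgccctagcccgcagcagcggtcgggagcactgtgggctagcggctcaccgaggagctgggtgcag
Col18a1 (chr10:77113656-77113955, minus strand): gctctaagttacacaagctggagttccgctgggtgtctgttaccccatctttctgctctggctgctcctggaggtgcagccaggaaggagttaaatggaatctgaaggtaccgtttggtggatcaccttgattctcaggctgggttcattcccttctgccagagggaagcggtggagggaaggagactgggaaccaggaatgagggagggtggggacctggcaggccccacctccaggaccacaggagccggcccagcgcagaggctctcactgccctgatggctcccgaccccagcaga
The start sites of Col4a1 and Col4a2 lay 21 bases apart and their windows shared 78 bases, whereas those of Col4a5 and Col4a6 lay 1343 bases apart and their windows shared 0 bases. CCAAT was found in the windows of Col4a1, Col4a2, Col4a5, Col1a2 and the upstream start of Col18a1, and in 37.4% of 32851 windows of all genes. The GC box was found in all 4 type IV windows shown, in those of Col1a2 and the upstream start of Col18a1, and in 35.7% of all windows. Among these windows TATAAA was found once, 117 bases before the start of Col3a1, and in 13.6% of all windows. A match is a description of the letters only.

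Before the results, the samples were checked against their label. Among biliary markers, Krt19 was listed at 48.3, 4.11 and 3.58 FPKM in Combination replicates 1, 2 and 3, 2.56, 1.54 and 7.77 in GC, 3.18, 2.16 and 7.04 in ICB and 18.2, 0 and 0 FPKM in Control. Epcam stood at 0 to 5.80 FPKM everywhere but in Combination replicate 1, at 126 FPKM, so these 2 defining biliary transcripts were low or at 0 in most libraries. The whole list of 10 biliary tumour markers summed to 621 to 7805 FPKM in Combination, 2362 to 5456 in GC, 2672 to 4368 in ICB and 1904 to 2523 FPKM in Control. The 20 hepatocyte markers made up 0.751, 18.5 and 7.61% of FPKM in Combination replicates 1, 2 and 3, 0.146 to 1.36% in GC, 0.0950 to 0.479% in ICB and 0.00333 to 0.0196% in Control. The 15 small intestinal markers summed to 4674 FPKM in Combination replicate 1 and to at most 75.3 FPKM elsewhere, and the 14 skeletal muscle markers to 4302 FPKM in GC replicate 2 and 1434 FPKM in Control replicate 2. All 44 collagens together summed to 1837, 499 and 2418 FPKM in Combination, 3213, 4979 and 3649 FPKM in GC, 2515, 1609.7 and 3402 FPKM in ICB and 1780.0, 2713 and 1520.2 FPKM in Control. Combination replicate 2, the library richest in hepatocyte transcripts, thus held the least collagen of the 12. In bulk tissue, fewer collagen-producing cells and less collagen RNA per cell cannot be told apart.

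The plot of collagen levels relative to Control shows that GC tumours stood high in fibrillar collagens, whereas Combination tumours did not. GC tumours had more of every tested fibrillar chain than Control tumours on average, and less of the basement membrane chains Col4a5 and Col4a6. Of the 23 collagens with a mean of at least 1 FPKM, limma (moderated test, Benjamini-Hochberg adjustment over all 12765 genes of that level) called 0 between GC and Control, against 0.00783% of all genes, and 5 had an unadjusted p under 0.05 (9.86% of all genes). The difference was positive for 16 of 23, against 58.1% of all genes. In 7 of the 23 all GC samples lay above all Control samples (18.6% of all genes), and in 3 all lay below (9.29%). The median log2 difference was 0.49 over the 23 collagens and 0.09 over all genes. Single libraries moved it: the collagen median was 0.25 without GC replicate 2, 1.00 without Control replicate 2 and 0.19 (13 of 23 positive) without Control replicate 3. It was 0.26 after quantile normalization and 1.06 with the mean of the hepatocyte markers added as a covariate, where the median of all genes was -0.07 and 0.44. Without the 3 Combination samples in the fit, an alternative added after the data were seen, Col15a1 and Col3a1 were called higher in GC (limma adjusted p = 0.0468 and 0.0495). There 297 of all 12765 genes were called. Over all alternatives the limma adjusted p was 0.0468 to 0.739 for Col15a1 and 0.0495 to 0.782 for Col3a1. Hepatocyte transcripts also differed between these groups, at 0.146 to 1.36% of FPKM in GC and 0.00333 to 0.0196% in Control, and their part in the result was not tested. The comparisons with Control share the same 3 Control samples.

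**Figure D1:**
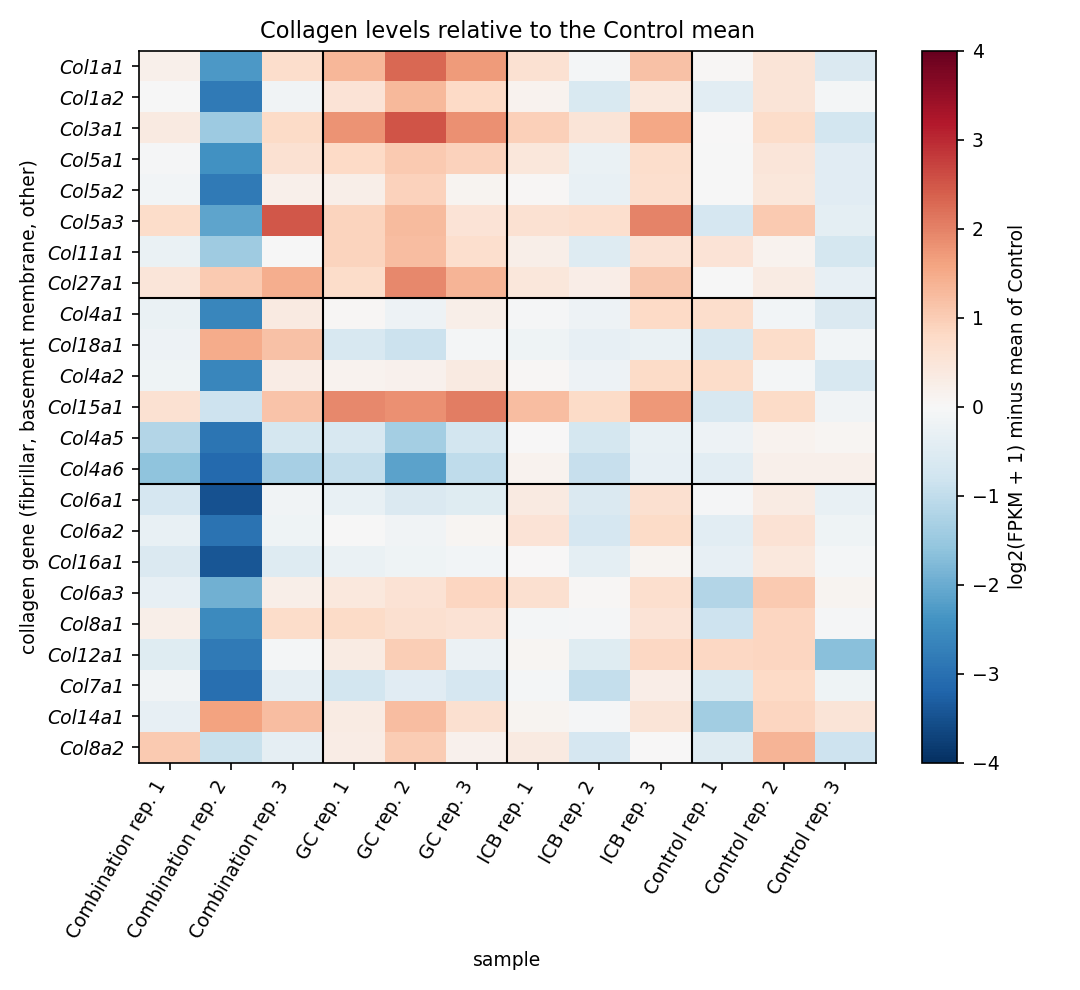
Each row is a collagen with a mean of at least 1 FPKM and each column a sample, coloured by log2(FPKM + 1) minus the mean of the 3 Control samples; lines part the groups and the collagen classes. Col1a1, Col3a1 and Col15a1 are above the Control mean in all GC samples, and most rows are lowest in Combination replicate 2.

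For ICB tumours against Control tumours no collagen passed the test. Limma called 0 of 23 (0% of all genes), 1 had an unadjusted p under 0.05 (1.75% of all genes), 16 were positive (41% of all genes), and 1 collagen, Col15a1, had all ICB samples above all Control samples (4.65% of all genes), while 0 had them all below (4.67%). The median difference was 0.15 over collagens and -0.06 over all genes, and single libraries set its direction. It was -0.11 with 8 of 23 positive without ICB replicate 3, -0.05 with 10 of 23 without Control replicate 3, 0.41 with 20 of 23 without ICB replicate 2 and 0.50 with 21 of 23 without Control replicate 2.

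With all samples, Combination tumours had lower mean levels than Control tumours for 18 of 23 collagens and higher ones for 5 (33% of all genes higher), and 1 library set this direction. Without Combination replicate 2, 13 of 23 were higher and the collagen median was 0.05 (-0.04 over all genes), against a median of -0.66 (-0.29 over all genes) with all samples and -1.23 without Combination replicate 3. Col4a6 fell and no other collagen passed, against 0.4% of all genes called lower by limma, 3.55% called higher and 3.95% in either direction. An unadjusted p under 0.05 was found for 4 collagens (26.3% of all genes). In 3 collagens all Combination samples lay below all Control samples (13.2% of all genes) and in 1 above (9.74%). Hepatocyte transcripts also differed between these groups, at 0.751 to 18.5% of FPKM in Combination and 0.00333 to 0.0196% in Control, and their part in the result was not tested. Without Combination replicate 1, 4 of 23 collagens were called (Col4a5 and Col4a6 lower, Col18a1 and Col27a1 higher), against 3167 of all 12765 genes. Without Combination replicate 3, 2 were called (Col4a5 and Col4a6), against 332 of all genes. Without Combination replicate 2, any Control sample, any ICB sample or GC replicate 1 or 3, 0 were called, against 219 to 397 of all genes. With the hepatocyte covariate, 17 of 23 collagens were higher, not lower, in Combination (median 0.29, against 0.33 over all genes), with 0 called. The hepatocyte shares of the 2 groups did not overlap, so this fit cannot part group from hepatocyte content. The same holds for every use of this covariate in a comparison with Control.

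Against GC tumours, Combination tumours had less of 21 of 23 collagens. Limma called 0 (0.666% of all genes called in either direction), 7 had an unadjusted p under 0.05 (16.5% of all genes), and 23.8% of all genes had a positive difference, against 2 of 23 collagens. There were 9 collagens in which all Combination samples lay below all GC samples (14.2% of all genes) and 0 above (4.16%). The median difference was -1.10, against -0.36 over all genes. Without Combination replicate 2 it was -0.28 with 5 of 23 positive (-0.11 over all genes), and with the hepatocyte covariate -0.64 (-0.10 over all genes). Without Combination replicate 1, which held the intestinal transcripts, 6 of 23 were called: Col1a1, Col1a2, Col3a1, Col11a1 and Col15a1 lower and Col18a1 higher. In that setting limma called 3014 of all 12765 genes, so calls were common among all genes too. Against ICB tumours, limma called 0 (2.24% of all genes), 5 had an unadjusted p under 0.05 (20.5% of all genes), 4 of 23 were positive (35.3% of all genes), 3 lay apart and lower (10.1%) and 0 higher (9.47%), and the median difference was -1.02 against -0.21 over all genes. It was -0.13 with 6 of 23 positive without Combination replicate 2 (0.05 over all genes), -1.58 without Combination replicate 3 and -0.33 with the hepatocyte covariate (0.18 over all genes). Without Combination replicate 1, Col18a1 was called higher, and limma called 2050 of all 12765 genes. Between GC and ICB tumours limma called 0 (0% of all genes), 0 had an unadjusted p under 0.05 (5.04% of all genes), 14 of 23 were positive and 11 to 17 without single samples (68.4% of all genes), 7 lay apart and higher in GC (21.8%) and 1 lower (4.43%).

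Whether the response to GC differed with and without blockade was asked by the interaction, which is Combination minus GC minus ICB plus Control. Its sign was negative for 22 of 23 collagens and positive for 1 (31.8% of all genes positive; median -1.32, against -0.26 over all genes), so that with all samples the levels under both treatments lay below the sum of the single differences. Without Combination replicate 2 the median was -0.41 with 4 of 23 positive (-0.01 over all genes). Limma called 0 (0.0157% of all genes), and 5 had an unadjusted p under 0.05 (8.09% of all genes). The smallest p-values belonged to Col15a1 (-2.85 ± 0.70, limma adjusted p = 0.325), Col3a1 (-3.16 ± 0.80, adjusted p = 0.325), Col1a1 (-2.80 ± 0.95, adjusted p = 0.478), Col11a1 (-1.59 ± 0.63, adjusted p = 0.576) and Col18a1 (1.59 ± 0.64, adjusted p = 0.587). Without Combination replicate 1, Col15a1, Col3a1 and Col18a1 passed, against 812 of all 12765 genes. With the hepatocyte covariate Col15a1 and Col3a1 passed, against 469 of all genes. Over the 4 groups together limma called 0 (1.83% of all genes), and 7 had an unadjusted p under 0.05 (17.1% of all genes). Col18a1 was called without Combination replicate 1, against 1806 of all 12765 genes.

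**Figure D2:**
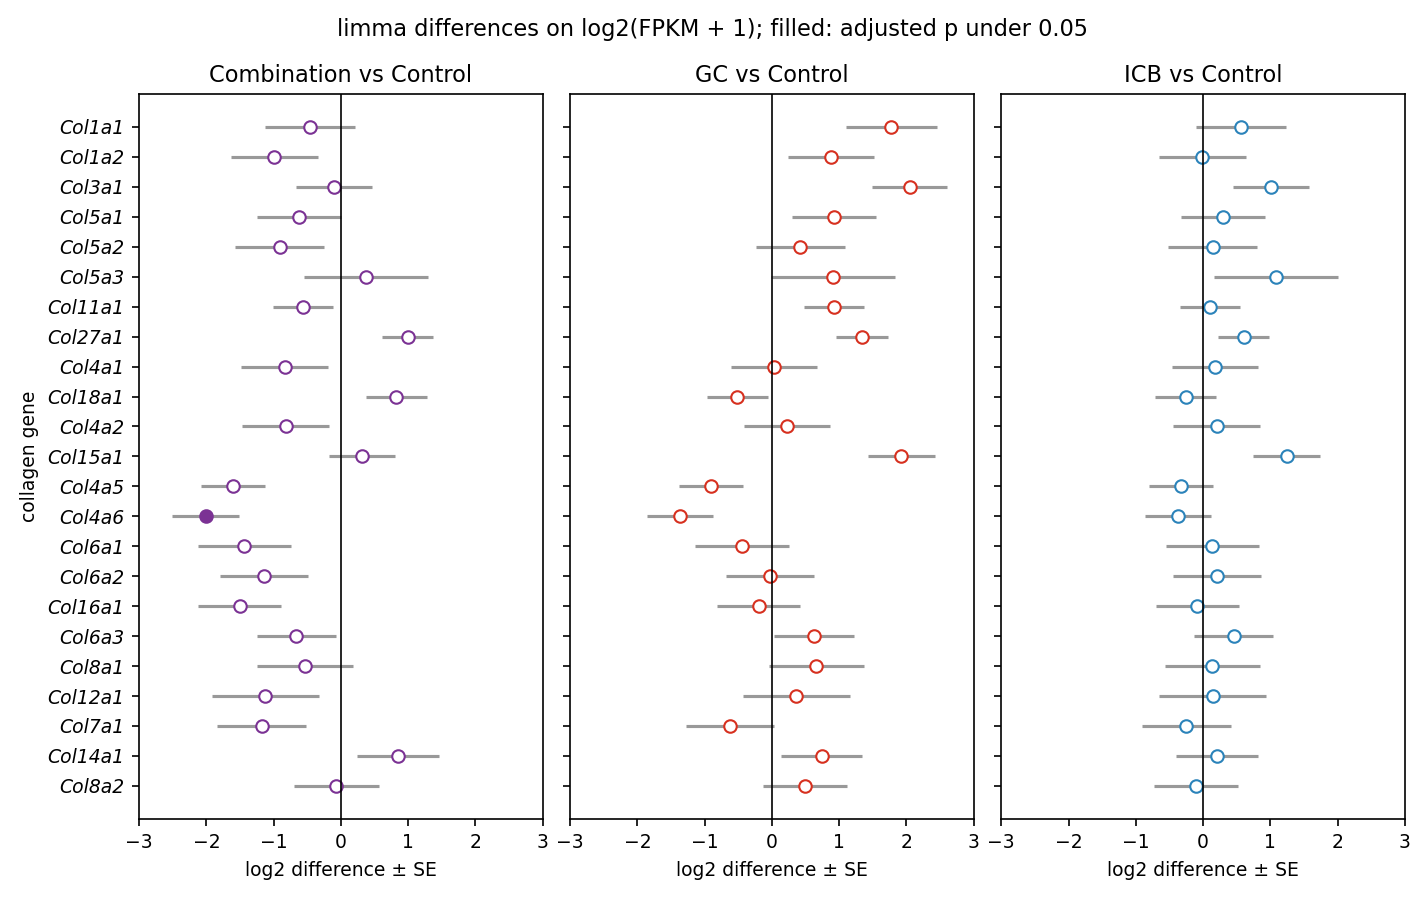
Log2 differences on log2(FPKM + 1) of each tested collagen from Control, with bars of 1 SE from limma, for Combination, GC and ICB (n = 3 per group). Filled points have an adjusted p under 0.05, which holds for Col4a6 in Combination alone; the fibrillar chains at the top lie right of 0 in GC.

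Type I collagen, the main fibre of scar tissue, is a trimer of Col1a1 (chr11:94936224-94953042, plus strand) and Col1a2 (chr6:4504814-4541544, plus strand), in GRCm38 and GENCODE M21 coordinates. Col1a1 stood at 389.6, 69.5 and 562 FPKM in Combination tumours, 864, 1683 and 1113 FPKM in GC, 519, 326 and 772 FPKM in ICB and 357, 493 and 227 FPKM in Control. The lowest GC sample lay above every sample of the other 3 groups, and the mean in GC was 3.40 times that in Control. The share of all genes with GC above all other samples, a pattern also seen in genes below, was not counted. GC lay above all Control samples in 18.6% of all genes and above all ICB samples in 21.8%. The difference was 1.78 ± 0.67 for GC against Control (limma adjusted p = 0.404), 1.21 ± 0.67 for GC against ICB (adjusted p = 0.921) and -2.24 ± 0.67 for Combination against GC (adjusted p = 0.208), and 0.57 ± 0.67 for ICB against Control (adjusted p = 1). Col1a2 stood at 475, 67.0 and 435 FPKM in Combination, 698, 1176 and 827 in GC, 531, 315 and 646 in ICB and 357, 679 and 453 FPKM in Control. All GC samples again lay above all others, but by less, with a mean 1.82 times that of Control.

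Type III collagen, a homotrimer of Col3a1 (chr1:45311538-45349706, plus strand), makes the thin reticular fibres that support type I fibres. Col3a1 stood at 253, 71.8 and 336 FPKM in Combination, 683, 1131 and 699 in GC, 383, 279.8 and 578 in ICB and 197, 326 and 118 FPKM in Control, so that GC samples lay above all others and ICB overlapped Control. The mean in GC was 3.92 times that in Control. The differences were 2.05 ± 0.56 for GC against Control (limma adjusted p = 0.222), 1.01 ± 0.56 for ICB against Control (adjusted p = 1), 1.04 ± 0.56 for GC against ICB (adjusted p = 0.921) and -2.15 ± 0.56 for Combination against GC (adjusted p = 0.143). Without Combination replicate 1 the last had an adjusted p of 0.0278, and that of Col1a1 was 0.0389 (limma; over all alternatives 0.0278 to 0.604 and 0.0389 to 0.604). The muscle-rich GC replicate 2 held the most Col1a1, Col1a2 and Col3a1 of the 12, and the muscle-rich Control replicate 2 the most of its group; the part of muscle tissue in these levels was not tested.

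**Figure D3:**
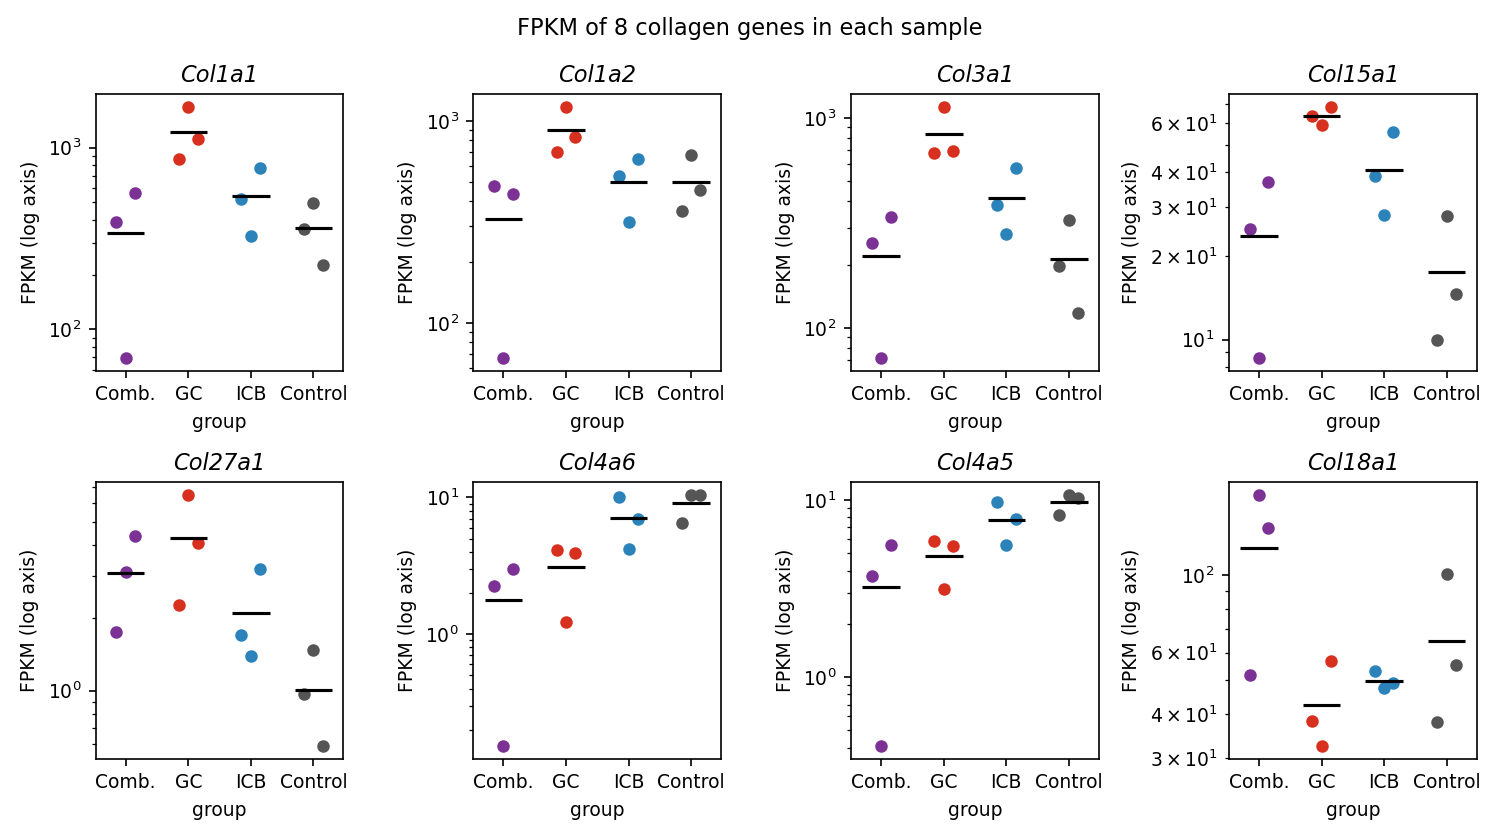
FPKM on a log axis in each sample, by group, with a line at the group mean of 3 samples. All GC samples exceed all other samples for Col1a1, Col1a2, Col3a1 and Col15a1, Col4a6 is low in both groups that received GC, and Col18a1 is highest in Combination replicates 2 and 3.

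Type V and XI chains are minor fibrillar collagens that start and limit fibre growth. Col5a1 stood at 68.9, 12.3 and 108 FPKM in Combination, 124, 146 and 134 in GC, 97.3, 59.0 and 115 in ICB and 70.1, 98.7 and 50.9 FPKM in Control, with GC apart and above the other groups. Its partner chain Col5a2, which lies tail to tail with Col3a1 on chromosome 1 with 24614 bases between them, stood at 48.5, 6.42 and 60.2 FPKM in Combination, 61.6, 99.5 and 55.9 in GC, 54.1, 42.4 and 84.2 in ICB and 51.9, 71.9 and 37.9 FPKM in Control. Unlike in Col3a1, GC and Control overlapped in Col5a2. Col5a3 stood at 15.7, 1.33 and 55.2 FPKM in Combination, 17.7, 23.2 and 13.8 in GC, 14.4, 14.9 and 38.4 in ICB and 5.27, 19.9 and 6.68 FPKM in Control (1.09 ± 0.92 for ICB against Control, limma adjusted p = 1). Its highest samples were Combination replicate 3 and ICB replicate 3, and all groups overlapped Control. Col11a1 stood at 1.81, 0.272 and 2.32 FPKM in Combination, 5.20, 6.88 and 4.34 in GC, 3.002, 1.35 and 4.03 in ICB and 3.96, 2.75 and 1.07 FPKM in Control. GC lay above all other samples in Col11a1, by 0.82 ± 0.44 against ICB (limma adjusted p = 0.921), and Combination differed from GC by -1.49 ± 0.44 (adjusted p = 0.208). 

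Col27a1, a fibrillar collagen known from developing cartilage, was weakly expressed but followed another order. It stood at 1.75, 3.11 and 4.37 FPKM in Combination, 2.26, 6.49 and 4.11 in GC, 1.70, 1.39 and 3.20 in ICB and 0.969, 1.47 and 0.587 FPKM in Control. Both groups that received GC lay above all Control samples. The difference was 0.99 ± 0.38 for Combination against Control (limma adjusted p = 0.14), 1.34 ± 0.38 for GC against Control (adjusted p = 0.229), 0.60 ± 0.38 for ICB against Control (adjusted p = 1) and 0.73 ± 0.38 for GC against ICB (adjusted p = 0.921). It was the single tested fibrillar chain that was not lowest in Combination replicate 2. The other fibrillar genes had means under 1 FPKM and were not tested. Col2a1, the main collagen of cartilage, was listed at 0 in 11 samples and at 0.0772 FPKM in Control replicate 1. The cartilage proteoglycan gene Acan stood at 4.89 to 46.3 FPKM in Combination and 36.6 to 55.0 FPKM in GC. It stood at 42.3 to 70.7 FPKM in ICB and 48.1 to 101 FPKM in Control. Acan and Ibsp were the only 2 of the 8 cartilage and bone markers averaging 1 FPKM or more. Col11a2 ranged from 0.0615 to 1.42 FPKM, and Col24a1 from 0 to 3.81 FPKM with its highest value in the muscle-rich GC replicate 2.

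Summed over the 11 fibrillar genes, levels were 1255, 232 and 1563 FPKM in Combination, 2458, 4277 and 2852 FPKM in GC, 1606, 1040.2 and 2242 FPKM in ICB and 1044, 1694 and 896 FPKM in Control. GC stood apart from the other groups, with a mean 2.64 times that of Control. All 8 tested chains were positive for GC against Control, as they were under quantile scaling, after rescaling without tissue markers and with the hepatocyte covariate (median 0.92, against 0.09 over all genes), and 7 of 8 for ICB (median 0.43, against -0.06), but 5 of 8 without ICB replicate 3 or Control replicate 3. For Combination 2 of 8 were positive (median -0.51, against -0.29 over all genes), but 6 of 8 without Combination replicate 2 and 8 of 8 with the hepatocyte covariate. The medians of all genes in these settings were -0.04 and 0.33.

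Col4a1 (chr8:11198423-11312826, minus strand) and Col4a2 (chr8:11312805-11449287, plus strand) build the common type IV network of all basement membranes, vessels included. Col4a1 stood at 78.4, 14.5 and 119 FPKM in Combination, 97.6, 81.4 and 109 in GC, 90.4, 80.2 and 164 in ICB and 153, 86.0 and 61.9 FPKM in Control. Col4a2 stood at 51.2, 8.50 and 71.5 FPKM in Combination, 63.1, 64.9 and 74.1 in GC, 59.1, 49.4 and 99.0 in ICB and 95.4, 53.7 and 36.8 FPKM in Control. In both chains every treated group overlapped Control, and the highest samples were ICB replicate 3 and Control replicate 1. The ratio of Col4a1 to Col4a2 stayed between 1.25 and 1.70 over all 12 samples, also in Combination replicate 2, where both chains were lowest.

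The second pair, Col4a5 (chrX:141475385-141689234, plus strand) and Col4a6 (chrX:141165403-141474076, minus strand), encodes chains of epithelial and smooth muscle basement membranes. Col4a6 stood at 2.24, 0.151 and 2.97 FPKM in Combination, 4.11, 1.23 and 3.94 in GC, 10.01, 4.21 and 6.92 in ICB and 6.46, 10.4 and 10.5 FPKM in Control. All 6 samples that received GC, alone or in Combination, lay below all 6 that did not, a split made after the values had been seen. The margin was narrow, at 4.11 against 4.21 FPKM. Col4a6 was the only 1 of 23 collagens to part the samples this way (1.3% of all genes), with 0 collagens above (2.75%). Col4a6 fell in Combination against Control by 2.01 on the log2 scale (SE 0.49, limma adjusted p = 0.0449). It differed by -1.37 ± 0.49 for GC against Control (adjusted p = 0.365), -1.65 ± 0.49 for Combination against ICB (adjusted p = 0.106) and -1.002 ± 0.49 for GC against ICB (adjusted p = 0.921). The call in Combination was lost without Control replicate 1, 2 or 3, Combination replicate 2, GC replicate 1 or 3 or any ICB sample (limma adjusted p from 0.0607 to 0.144), and with the hepatocyte covariate its adjusted p was 0.577, in a range of 0.023 to 0.577 over all alternatives. Among Combination samples Col4a6 was lowest in replicate 2, the most hepatocyte-rich, and highest in replicate 3, the next in hepatocyte content. Replicate 1, between them, held the intestinal transcripts. The part of admixed tissue in these levels was not tested.

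Col4a5 stood at 3.73, 0.407 and 5.56 FPKM in Combination, 5.85, 3.16 and 5.49 in GC, 9.75, 5.57 and 7.79 in ICB and 8.25, 10.7 and 10.3 FPKM in Control. Combination and GC both lay below all Control samples. It differed by -1.60 ± 0.48 for Combination against Control (limma adjusted p = 0.0828) and by -1.28 ± 0.48 for Combination against ICB (adjusted p = 0.168). The ratio of Col4a5 to Col4a6 was 1.66, 2.69 and 1.87 in Combination, 1.42, 2.56 and 1.39 in GC, 0.974, 1.32 and 1.13 in ICB and 1.28, 1.03 and 0.986 in Control. Every sample that received GC had a higher ratio than every sample that did not, so Col4a6 was lower relative to Col4a5 in those tumours, while the ratio of the first pair did not part the samples in this way. The margin was narrow (1.39 in GC against 1.32 in ICB), and the split was made after the values had been seen. The ratio of 2.69 in Combination replicate 2 rests on low levels, 0.407 FPKM of Col4a5 and 0.151 FPKM of Col4a6. Col4a3 and Col4a4, the pair of the kidney glomerulus, stood at 0 to 0.0825 and 0 to 0.0802 FPKM and were not tested.

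Col15a1 (chr4:47208161-47313167, plus strand) and Col18a1 (chr10:77052178-77166548, minus strand) are multiplexins, collagens with sugar side chains at the border of basement membranes, and Col18a1 carries endostatin at its end. Col15a1 stood at 25.0, 8.59 and 36.9 FPKM in Combination, 63.9, 58.8 and 68.8 in GC, 38.8, 28.0 and 55.6 in ICB and 9.98, 27.8 and 14.6 FPKM in Control. GC samples lay above all others, and ICB samples above all Control samples by a narrow margin. The difference was 1.93 ± 0.49 for GC against Control (limma adjusted p = 0.197), 1.24 ± 0.49 for ICB against Control (adjusted p = 1) and -1.61 ± 0.49 for Combination against GC (adjusted p = 0.215). It had the smallest p of all collagens in both single-treatment comparisons. Endothelial markers (11 genes), made by cells known to express Col15a1, summed to 71.9 to 73.4 FPKM in Combination, 58.9 to 152 in GC, 45.8 to 87.9 in ICB and 31.3 to 77.6 FPKM in Control; their part in the result was not tested.

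Col18a1, which hepatocytes are known to make in the liver, was higher, not lower, on average in Combination. It stood at 51.8, 169 and 136 FPKM in Combination, 38.3, 32.4 and 56.9 in GC, 53.2, 47.6 and 49.1 in ICB and 38.0, 101 and 55.4 FPKM in Control. Its highest samples were Combination replicates 2 and 3, the most hepatocyte-rich of the 12, although Control replicate 2 came next at a low hepatocyte share. Combination differed by 1.34 ± 0.45 from GC (limma adjusted p = 0.246) and by 1.07 ± 0.45 from ICB (adjusted p = 0.214). Without the intestine-rich Combination replicate 1 these adjusted p-values were 0.00882 and 0.0186, in ranges of 0.00882 to 0.859 and 0.0186 to 0.943 over all alternatives, and the 2 remaining Combination samples were both hepatocyte-rich. The part of hepatocyte content was not tested. Gene-level FPKM does not tell which of the 2 start sites shown above was used.

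Among the other collagens, type VI filaments were the most abundant. Col6a1 stood at 141, 19.03 and 206 FPKM in Combination, 185, 152 and 162 in GC, 288, 151 and 349 in ICB and 220.1, 281 and 185 FPKM in Control. All GC samples lay below all Control samples by a narrow margin, against the direction of the fibrillar chains. Col6a1 differed by -1.44 ± 0.69 for Combination against Control (limma adjusted p = 0.209) and -1.57 ± 0.69 against ICB (adjusted p = 0.231). With the hepatocyte covariate the first of these was 0.057 ± 1.18, and the median of all genes moved from -0.29 to 0.33. Col6a2 stood at 111, 16.9 and 123 FPKM in Combination, 135, 124 and 144 in GC, 202, 86.6 and 232 in ICB and 103, 205 and 123 FPKM in Control, and Col6a3 at 25.1, 7.55 and 37.5 FPKM in Combination, 42.8, 47.5 and 57.8 in GC, 49.7, 32.6 and 51.1 in ICB and 13.5, 66.8 and 33.9 FPKM in Control. In both, Combination lay below GC and overlapped Control. Col6a4, Col6a5 and Col6a6 reached at most 0.118, 1.78 and 0.0943 FPKM.

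The FACIT and short chain collagens gave fewer differences. Col16a1 stood at 32.5, 3.65 and 34.1 FPKM in Combination, 40.3, 43.1 and 44.9 in GC, 49.8, 37.2 and 53.4 in ICB and 38.5, 65.7 and 46.6 FPKM in Control. All Combination samples lay below all 9 other samples, by a narrow margin (34.1 against 37.2 FPKM). Of all genes, Combination lay below all Control samples in 13.2%, all GC samples in 14.2% and all ICB samples in 10.1%. The share below all 9 was not counted. The difference was -1.51 ± 0.62 against Control (limma adjusted p = 0.159) and -1.42 ± 0.62 against ICB (adjusted p = 0.226). With the hepatocyte covariate it was 0.18 ± 0.99 against Control. Col8a1, a network collagen of vessel walls, stood at 33.9, 4.04 and 48.3 FPKM in Combination, 49.4, 44.9 and 43.6 in GC, 26.9, 27.9 and 42.6 in ICB and 15.9, 53.3 and 27.7 FPKM in Control. GC lay above ICB and overlapped Control. Col12a1 stood at 8.13, 0.791 and 11.1 FPKM in Combination, 14.9, 24.2 and 9.78 in GC, 12.4, 8.04 and 21.7 in ICB and 21.6, 21.9 and 2.95 FPKM in Control, with all groups overlapping.

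The remaining tested collagens were Col7a1, the anchoring fibril of epithelia, at 0.780 to 23.8 FPKM over the 12 samples, Col14a1 at 0.247 to 9.08 FPKM and Col8a2 at 0.174 to 4.54 FPKM, and in none did a treated group lie apart from Control. Col14a1 was highest in Combination replicate 2, against the direction of most collagens. The other 16 genes had means under 1 FPKM. Of these Col9a1 and Col26a1 were listed at 0 in all 12 samples. Col22a1, a collagen of the muscle-tendon junction, stood at 0.0248 and 0.104 FPKM in GC replicate 2 and Control replicate 2, the 2 muscle-rich libraries, and at 0 in the other 10. Col10a1, Col13a1, Col20a1 and Col23a1 reached 2.04, 1.54, 2.52 and 1.42 FPKM at most. Col9a2, Col9a3, Col17a1, Col19a1, Col25a1 and Col28a1 reached at most 0.429 FPKM, in Col9a3.

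The make-up of the collagen transcripts within each sample was also compared; these measures were chosen after the levels had been seen and carry no test. Col1a1, Col1a2 and Col3a1 together took 60.8, 41.8 and 55.1% of collagen FPKM in Combination, 69.9, 80.1 and 72.3% in GC, 57.0, 57.2 and 58.7% in ICB and 51.1, 55.2 and 52.5% in Control. GC lay apart and highest, and ICB lay above all Control samples. Type VI genes took 15.1, 8.94 and 15.2% in Combination, 11.3, 6.53 and 9.99% in GC, 21.5, 16.8 and 18.6% in ICB and 18.9, 20.4 and 22.5% in Control. Here all 6 samples that received GC lay below all 6 that did not. The multiplexins took 35.6% in Combination replicate 2, nearly all of it Col18a1 at 33.9%, and at most 7.15% in any other sample.

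**Figure D4:**
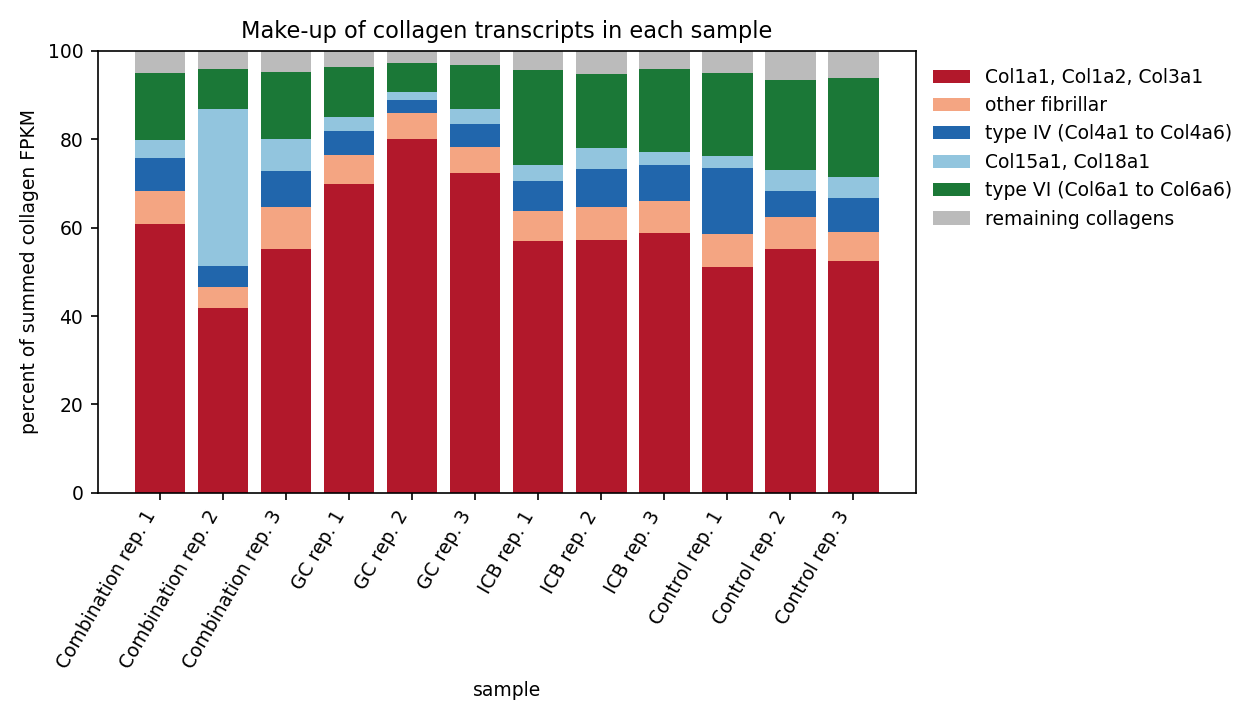
Stacked bars give the percent of summed collagen FPKM in each sample for 6 sets of collagen genes. The share of Col1a1, Col1a2 and Col3a1 is highest in GC, the type VI share is lower in Combination and GC than in ICB and Control, and Col18a1 fills much of Combination replicate 2.

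Ratios between chains do not depend on how much of a sample holds neither chain, but admixed tissue may hold either chain. Its part in these ratios was not tested. Col1a1 stood at 2.77, 3.65 and 2.73 times Col6a1 in Combination, 4.68, 11.1 and 6.88 times in GC, 1.80, 2.15 and 2.21 times in ICB and 1.62, 1.75 and 1.23 times in Control. Every sample that received GC lay above every sample that did not, including Combination replicate 1, whose Col1a1 level lay within the Control range, and replicate 2, whose level lay below it. The muscle-rich replicate 2 had the highest ratio of its group in both GC (11.1) and Control (1.75). Col1a1 stood at 0.821, 1.04 and 1.29 times Col1a2 in Combination, 1.24, 1.43 and 1.35 times in GC, 0.977, 1.04 and 1.19 times in ICB and 0.9998, 0.727 and 0.502 times in Control. In protein the usual type I trimer holds more Col1a1 than Col1a2 chains, and in transcripts GC and Control did not overlap in this ratio while Combination spanned from Control values to GC values. Col3a1 stood at 0.533, 1.07 and 0.772 times Col1a2 in Combination, 0.979, 0.962 and 0.844 in GC, 0.721, 0.889 and 0.894 in ICB and 0.551, 0.481 and 0.260 in Control, with GC and ICB both above Control. Col5a1 stood at 0.177, 0.177 and 0.192 times Col1a1 in Combination, 0.144, 0.0869 and 0.120 in GC, 0.187, 0.181 and 0.149 in ICB and 0.197, 0.200 and 0.224 in Control, so the fibre-starting type V chain made up the smallest part relative to type I in GC.

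**Figure D5:**
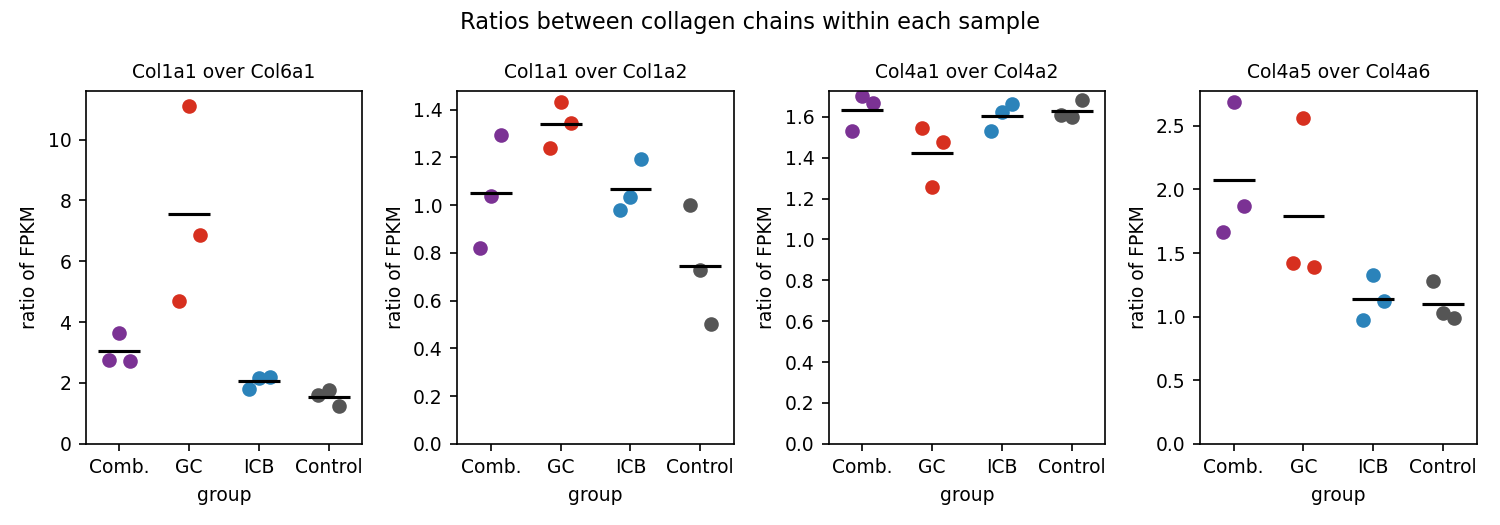
Ratio of FPKM between chains within each sample, with a line at the mean of 3 samples per group. Col1a1 over Col6a1 and Col4a5 over Col4a6 are higher in every Combination and GC sample than in every ICB and Control sample, whereas Col4a1 over Col4a2 stays between 1.25 and 1.70.

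Enzymes and chaperones that fold, trim and cross-link collagen (31 genes, 27 tested) gave no calls: limma called 0 higher and 0 lower in any comparison, with 6 of 27 at an unadjusted p under 0.05 for Combination against Control (26.3% of all genes), 3 for GC (9.86%) and 0 for ICB (1.75%). For GC against Control 17 of 27 were positive with a median of 0.29, against 58.1% and 0.09 over all genes. The median was 0.13 without GC replicate 2 and 0.17 without Control replicate 1. Without the 3 Combination samples 1 was called, against 297 of all 12765 genes. Here Loxl2, a lysyl oxidase that cross-links fibres, stood at 13.5, 4.47 and 20.9 FPKM in Combination, 33.2, 57.0 and 27.5 in GC, 11.3, 11.8 and 22.3 in ICB and 12.1, 9.07 and 5.06 FPKM in Control (2.05 ± 0.50 for GC against Control, limma adjusted p = 0.177). Pcolce2, an enhancer of procollagen trimming, stood at 3.69, 2.26 and 3.10 FPKM in Combination, 5.12, 6.86 and 5.17 in GC, 2.37, 1.71 and 4.26 in ICB and 1.06, 2.74 and 0.422 FPKM in Control (1.59 ± 0.37, adjusted p = 0.172). In both genes GC lay above all other samples. For Combination against Control 4 of 27 were positive (median -0.52, against 33% and -0.29 over all genes), but 15 of 27 without Combination replicate 2 (median 0.07) and 20 of 27 with the hepatocyte covariate. The medians of all genes in these settings were -0.04 and 0.33. The smallest p was that of Loxl4 (-1.27 ± 0.45, limma adjusted p = 0.114). Without Combination replicate 1, 2 of the 27 were called, against 3167 of all 12765 genes. For ICB 18 of 27 were positive (median 0.11, against 41% and -0.06 over all genes), but 12 without ICB replicate 3 (median -0.06) and 13 without Control replicate 1 (median -0.002).

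Collagen receptors, through which cells sense collagen, numbered 10 with 8 tested, and limma called 0 in any comparison, with 0 at an unadjusted p under 0.05. For GC against Control 5 of 8 were positive (median 0.18, against 58.1% and 0.09 over all genes; -0.03 without Control replicate 3, 0.04 without GC replicate 1 and 0.08 without Control replicate 1), with Itga1 the smallest p (0.61 ± 0.39, limma adjusted p = 0.662). For Combination against Control 1 of 8 was positive (median -0.64, against 33% and -0.29 over all genes). The median was -0.10 with 3 of 8 positive without Combination replicate 2 and -1.01 without Combination replicate 3. Without Combination replicate 1, 1 receptor was called, against 3167 of all 12765 genes. With the hepatocyte covariate 5 of 8 were positive, where the median of all genes was 0.33. The fibrillar collagen receptor kinase Ddr2 stood at 24.4, 3.73 and 26.5 FPKM in Combination and 19.95, 41.0 and 36.6 FPKM in Control (-1.11 ± 0.57, limma adjusted p = 0.234). The partners of type IV collagen in basement membranes (16 genes, 12 tested; laminins, nidogens and others) also had 0 calls by limma, with 4 of 12 at an unadjusted p under 0.05 for Combination against Control (26.3% of all genes), 1 for GC (9.86%) and 0 for ICB (1.75%). With all samples the 12 were negative for Combination against Control (0 positive, against 33% of all genes; median -0.97, against -0.29). Without Combination replicate 2, 2 of 12 were positive and the median was -0.22 (-0.04 over all genes). With the hepatocyte covariate 8 were positive, where the median of all genes was 0.33. Without Combination replicate 1, 1 of 12 was called, against 3167 of all 12765 genes. For GC 3 of 12 were positive (58.1% of all genes) with a median of -0.29, against 0.09, and of -0.18 without Control replicate 2. With the hepatocyte covariate 9 of 12 were positive, where the median of all genes was 0.44. Lama5, a laminin chain of epithelial membranes, stood at 20.9, 2.22 and 33.3 FPKM in Combination, 25.2, 10.5 and 25.1 in GC, 47.0, 31.2 and 36.0 in ICB and 58.1, 51.6 and 45.1 FPKM in Control (-1.96 ± 0.70 for Combination, limma adjusted p = 0.118; -1.39 ± 0.70 for GC, adjusted p = 0.547). Its Combination and GC samples all lay below all Control samples, as in Col4a5 and Col4a6. Of all genes, 13.2% had Combination below all Control samples and 9.29% had GC below them. The share with both was not counted.

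Fibroblast genes other than collagens (17, all tested) stood beside the fibrillar chains. For GC against Control 14 of 17 were positive with a median of 1.29, against 58.1% and 0.09 over all genes. Limma called 0 in any comparison, with 5 of 17 at an unadjusted p under 0.05 for GC (9.86% of all genes), 2 for ICB (1.75%) and 0 for Combination (26.3%). For GC it called 1 without the 3 Combination samples, where 297 of all 12765 genes were called. With the hepatocyte covariate it called 2, where the median of all genes was 0.44. The number of all genes called in that setting is not given here, so the 2 are no result about this list. For ICB 14 of 17 were positive with a median of 0.50 (41% and -0.06 over all genes), but the median was 0.09 without Control replicate 3 and 0.20 without ICB replicate 3. For Combination 8 of 17 were positive with a median of -0.17 (33% and -0.29 over all genes), and leaving out single Combination or Control samples gave medians from -0.65 to 0.55. Under the hepatocyte covariate 13 were positive with a median of 1.32, against a median of 0.33 over all genes. Lum, a proteoglycan that spaces fibres, stood at 22.4, 11.5 and 28.7 FPKM in Combination, 68.6, 112 and 74.7 in GC, 24.9, 31.2 and 60.5 in ICB and 21.4, 15.3 and 1.79 FPKM in Control (3.06 ± 0.67 for GC, limma adjusted p = 0.157). The fibroblast list summed to 1902, 589 and 2415 FPKM in Combination, 2927, 3057 and 2243 in GC, 1789, 1558 and 2857 in ICB and 1972, 2222 and 1246 FPKM in Control, and GC overlapped Combination and ICB but lay above all Control samples. Relative to the fibroblast and pericyte receptor Pdgfrb, Col1a1 stood at 7.93, 10.7 and 7.86 in Combination, 13.7, 45.5 and 19.8 in GC, 7.07, 6.86 and 7.57 in ICB and 6.14, 6.47 and 4.64 in Control. Relative to the proteoglycan Dcn it stood at 6.31, 0.763 and 7.03 in Combination, 6.998, 6.10 and 7.60 in GC, 6.69, 3.89 and 4.95 in ICB and 4.68, 7.55 and 10.5 in Control. GC lay above every other sample by the first ratio and within the Control range by the second. The 6 hepatic stellate cell genes, markers of the liver's own collagen producers, had 4 tested. For GC against Control 4 of 4 were positive (58.1% of all genes). For Combination against Control 4 of 4 were also positive (33%), unlike most collagens with all samples, with Hand2 at 1.49 ± 0.47 (limma adjusted p = 0.0928) and Lrat at 1.67 ± 0.56 (adjusted p = 0.105). The list summed to 148, 28.4 and 31.0 FPKM in Combination, 54.4, 216 and 70.1 in GC, 19.5, 16.8 and 38.5 in ICB and 14.2, 56.9 and 6.12 FPKM in Control. Its highest sums lay in the muscle-rich GC replicate 2 and the intestine-rich Combination replicate 1. The counts of this list were not examined without single samples. For Combination against GC 1 of 4 was positive (23.8%). The stellate gene Cygb, named after its values were seen, stood at 9.61, 7.68 and 13.4 FPKM in Combination, 35.6, 35.1 and 46.4 in GC, 12.2, 10.1 and 22.4 in ICB and 6.37, 5.20 and 3.30 FPKM in Control. Cygb rose in GC against Control (2.77 ± 0.33, limma adjusted p = 0.0361) and fell in Combination against GC (-1.86 ± 0.33, adjusted p = 0.0291). It was the only stellate gene called in these comparisons, against 0.00783% and 0.666% of all genes. Its GC samples lay above all others, as for Col1a1, Col1a2, Col3a1 and Col15a1. The share of all genes with this pattern was not counted. The first call was lost without any 1 GC sample, Control replicate 2 or 3, Combination replicate 3 or ICB replicate 2 (limma adjusted p from 0.0534 to 0.277), under quantile normalization (0.0622), without the intensity trend (0.0506), with the 2 groups alone (0.0555) and without the muscle-rich pair (0.43). The difference stayed between 2.55 and 2.99 in each of these settings and the others run. The second call was lost without any 1 GC sample, Combination replicate 2, Control replicate 2 or ICB replicate 1 (limma adjusted p from 0.0527 to 0.126), with a replicate block (0.0529), a pseudocount of 0.1 FPKM (0.0637), a mean of at least 5 FPKM (0.0538), quantile normalization (0.0589), the 2 groups alone (0.216) and without the muscle-rich pair (0.264). Its difference stayed between -2.05 and -1.61 in the settings run. The part of stellate cells in the collagen levels was not tested.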

How the data were processed

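Total RNA had been extracted from 425-ICC tumours and made into stranded libraries, per the labels' protocols. Samples were grouped by their titles (3 in each of 4 groups), and 0 columns stayed unmapped. The values used were FPKM as deposited by the authors, 1 per symbol and sample. FastQC, cutadapt, HISAT2, SAMtools and HTSeq with mm10 were used, per the submitters' processing notes; versions, annotation, the step that made FPKM and the use of strand are not given in the sources used here, so overlapping genes such as Col4a1 and Col4a2 at their shared start are uncertain. Whole reads could not be recovered: over 66 sample pairs, the fullest bin of log2 ratios of values up to 0.1 FPKM held at most 17.3% of genes.

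log2(FPKM + 1), which understates changes of low genes, was fitted in limma 3.58.1 (R 4.3.3) for the 12765 genes averaging 1 FPKM or more, all 12 samples together (8 residual degrees of freedom), with an intensity trend, two-sided tests and an adjusted p threshold of 0.05. The step was run on simulated data with independent noise, where changed genes were drawn from those with spread under the median. That run cannot tell how well changes of genes with larger spread are found. Differences are estimates ± SE. Values in every sample were given for tested fibrillar and basement membrane collagens, the 6 others of highest mean and any called; differences for called collagens and otherwise the 5 of smallest p, and in the other lists up to 2 of smallest p. Members and lists were chosen with earlier results of these data known. Promoters and symbols were matched to RefSeq (GRCm38.p6) and locations to GENCODE M21 (GRCm38), which is the same assembly as mm10.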

Additional observations from a re-analysis of the deposited data

How the results depend on the processing

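The number of collagens called between Combination and Control, 1 in the analysis reported, was 0 with a pseudocount of 0.1 FPKM, without a filter on low values, with a mean of at least 5 FPKM, after rescaling without tissue markers, with the hepatocyte covariate, with the 2 groups alone and without the muscle-rich pair, 2 after quantile normalization, and 0 to 4 without single samples. For GC against Control it was 0 in all these settings and 2 without the 3 Combination samples. The interaction count was 2 with the hepatocyte covariate and 0 to 3 without single samples, and leaving out single samples gave 0 to 6 for Combination against GC, 0 to 1 for Combination against ICB and 0 to 1 over the 4 groups. For ICB against Control and GC against ICB it stayed at 0 in each setting run. Where counts varied, apart from GC against Control, the highest came without Combination replicate 1. There limma called 3167 of all 12765 genes for Combination against Control, 3014 for Combination against GC and 2050 for Combination against ICB. It called 812 for the interaction and 1806 over the 4 groups. For Combination against Control, 504 of all genes were called in the analysis reported and 897 after quantile normalization. With the hepatocyte covariate the differences of Col16a1 (0.18 ± 0.99) and Col6a1 (0.057 ± 1.18) between Combination and Control changed sign, but lay within 1 SE of 0. The median of all genes also moved there, from -0.29 to 0.33, and the cause was not tested. Hepatocyte shares of Combination and Control did not overlap, so group and hepatocyte content cannot be told apart in that fit. The summed level of the other collagens in GC, 474 ± 12.3 FPKM, was 429 FPKM after quantile normalization and 459 FPKM after rescaling. The median difference of all genes moved by over 0.1 with scaling: by -0.15 for GC against Control under quantile normalization and by 0.23 for Combination against Control after rescaling. Over the 4 groups the replicate numbers of the titles did not pair the samples. Deviations of same-numbered samples correlated from -0.236 to 0.416 over 18 pairs, over 0.1 in 8, and 6 of 12 samples correlated best with their own number. The deposited column names number some samples differently, and pairing by those was not examined. Between Combination and ICB alone all 3 pairs were over 0.1 (0.289, 0.139 and 0.197), and there the block changed no call of a collagen; with a replicate block the count for Combination against Control was 1 and for the other comparisons 0. Depth is unknown, which limits what can be said of collagens below 1 FPKM.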
